A study of Homo sapiens with 4 samples.

Results

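The genes described here are 54 protein-coding genes whose symbol begins with ZNF and whose mean expression over the 4 libraries was 2 RPKM or more (reads relative to the length of the gene and the size of the library), of 17041 genes in the expression table. The table holds 432 protein-coding ZNF genes in all, so the 54 are 12.5% of them, and 3 further rows with a ZNF symbol at that level are not protein-coding and were left out. Of the 54 genes, 17 lie on chromosome 19 and 37 on other chromosomes. The genes were chosen by their mean RPKM over all 4 libraries, so that level is given as a description, and the difference between knockdown and wild type was not used to choose them. The lowest genes inside the limit were ZNF576 at 2.12, ZNF326 at 2.06 and ZNF446 at 2.03 RPKM, and the nearest outside were ZNF761 at 1.99, ZNF18 at 1.96 and ZNF524 at 1.93 RPKM.

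RNA selected for poly-A tails came from A549, a human lung adenocarcinoma cell line. The 2 wild-type libraries are labelled RBM10 wild type, and the 2 knockdown libraries came from A549 cells that carried a lentiviral shRNA against RBM10 with puromycin selection over 10 to 14 days. RBM10 is an RNA-binding protein of the spliceosome that mostly promotes skipping of exons, and the comparison asks what differs in cells with less of it. No label states a control construct or puromycin for the wild-type cells, so less RBM10 cannot be told apart from transduction and selection, and 1 shRNA was used.

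ZNF is a naming prefix for zinc finger proteins, and most of them carry C2H2 fingers, short folds that hold a zinc ion with a pair of cysteines and a pair of histidines and that bind DNA or RNA. The largest subgroup joins an array of fingers to a KRAB domain, which recruits TRIM28 and through it SETDB1 and HP1 proteins to silence chromatin, often at transposable elements. Genes for KRAB zinc finger proteins sit in clusters, above all on chromosome 19. Other ZNF genes have quite different work, in ribosome assembly, spindle function, splicing or the cytoskeleton.

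Sequences that differ between the isoforms of these genes show what a splice choice adds or removes. The alternative parts printed here, from GENCODE v29 transcripts (hg38), 5′ to 3′ on the strand of the gene, carry the part that is added or removed in capitals and 12 bases on each side in lower case. In each, the PSI of the junction differed between the groups without overlap, as the values further on show.
ZNF655 cassette exon, chr7:99571688-99571792, plus strand: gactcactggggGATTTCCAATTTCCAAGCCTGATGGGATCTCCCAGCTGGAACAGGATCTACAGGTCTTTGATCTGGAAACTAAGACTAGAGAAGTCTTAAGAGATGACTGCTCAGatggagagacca
ZNF584 cassette exon, chr19:58409965-58410091, plus strand: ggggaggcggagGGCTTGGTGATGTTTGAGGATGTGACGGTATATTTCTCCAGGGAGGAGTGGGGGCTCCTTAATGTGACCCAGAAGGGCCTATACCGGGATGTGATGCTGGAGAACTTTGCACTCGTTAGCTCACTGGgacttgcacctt
ZNF207 cassette exon, chr17:32366665-32366757, plus strand: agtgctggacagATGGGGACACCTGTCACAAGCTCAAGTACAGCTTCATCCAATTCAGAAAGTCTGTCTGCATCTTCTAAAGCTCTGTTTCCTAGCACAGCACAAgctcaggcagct
ZNF384 cassette exon, chr12:6672350-6672532, minus strand: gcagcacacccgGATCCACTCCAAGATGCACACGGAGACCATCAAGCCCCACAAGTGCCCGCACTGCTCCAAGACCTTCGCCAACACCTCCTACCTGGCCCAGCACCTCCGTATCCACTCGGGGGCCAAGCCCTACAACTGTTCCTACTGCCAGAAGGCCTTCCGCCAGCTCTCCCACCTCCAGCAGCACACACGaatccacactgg
ZNF692 alternative 3′ part, chr1:248857437-248857497, minus strand: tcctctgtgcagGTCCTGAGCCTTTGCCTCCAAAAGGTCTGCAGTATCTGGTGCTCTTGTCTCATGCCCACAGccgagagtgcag
ZNF143 alternative 3′ part, chr11:9474550-9474552, plus strand: tacctaaaagtaCAGgggacagtttgc

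The ZNF655 exon has 105 bases, the ZNF207 exon 93 and the ZNF384 exon 183, all multiples of 3. In the transcripts read here, each adds residues without a shift of the reading frame. The ZNF655 transcript read here is a short one, with 182 residues with the exon, 147 without and 0 finger patterns. The form in which the fingers of ZNF655 were counted has 491 residues and 6 finger patterns. In the ZNF384 transcript read here, the exon carries finger-coding sequence, with 8 finger patterns counted with it and 6 without. The ZNF584 exon has 127 bases and shifts the frame. In the short ZNF584 transcript read here it holds the KRAB pattern, and the open reading frame has 145 residues with the exon and 32 without. The ZNF143 choice is between acceptors 3 bases apart, which adds or removes 1 residue of 607. In the ZNF692 transcript read here, the 61-base part also shifts the frame, with 132 residues with it and 105 without. These are properties of annotated transcripts, and the protein was not measured.

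Members of the set differed in level by more than a factor of 10. ZNF593, a nucleolar protein of ribosome maturation, had the highest mean, 36.3 RPKM, and 32 of the 54 genes lay between 2 and 4 RPKM. The median over the set was 3.28 RPKM, against 0.347 RPKM over all ZNF genes in the table. Between 91 and 9919 reads per library stood behind these values, with a median of 606, as recovered from the steps of the deposited RPKM, and 53 of 54 genes had 100 reads or more in every library. At 91 reads, counting error alone is 10.5% of the value. An annotated gene on the opposite strand overlaps 29 of the members, and 5 share more than 10% of their 100-base windows with another gene, ZNF207, ZNF410, ZNF511 and the readthrough genes ZNF286A-TBC1D26 and ZNF8-ERVK3-1, so their values are less certain.

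On chromosome 19, 8.46% of 201 ZNF genes reached 2 RPKM, against 16.02% of 231 on the other chromosomes. A KRAB pattern was found in the coding sequence of 254 ZNF genes in the table, of which 4.33% reached 2 RPKM, and 175 had none, of which 23.4% did. The members had a median of 5.5 finger patterns, against 11 in the ZNF genes below 2 RPKM, over 52 and 377 genes with a coding sequence. A finger was counted as Cys, 2 to 4 residues, Cys, 12 residues, His, 2 to 6 residues, His. The KRAB pattern was a match to short fixed motifs of the KRAB domain, so a gene without it may still encode such a domain. How far this moves the shares by KRAB pattern was not tested. Shares with a KRAB pattern were 43.8% of 16 members on chromosome 19 and 11.11% of 36 elsewhere. In the ZNF genes below 2 RPKM they were 86.4% and 43.5%. The longest coding exon held a median of 53.9% of coding bases in members and 85.9% below 2 RPKM. Over all ZNF genes in the table it held 87.5% on chromosome 19 and 79.2% elsewhere. These RPKM may rest on reads across exon junctions, which could lower genes with few junctions for their length. The part of this in the level contrasts was not tested. The name did not hold for every member: ZNF330 and ZNF185 had 0 finger patterns. ZNF185 is a LIM domain protein of the actin cytoskeleton, and ZNF330 is a nucleolar protein.

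**Figure D1:**
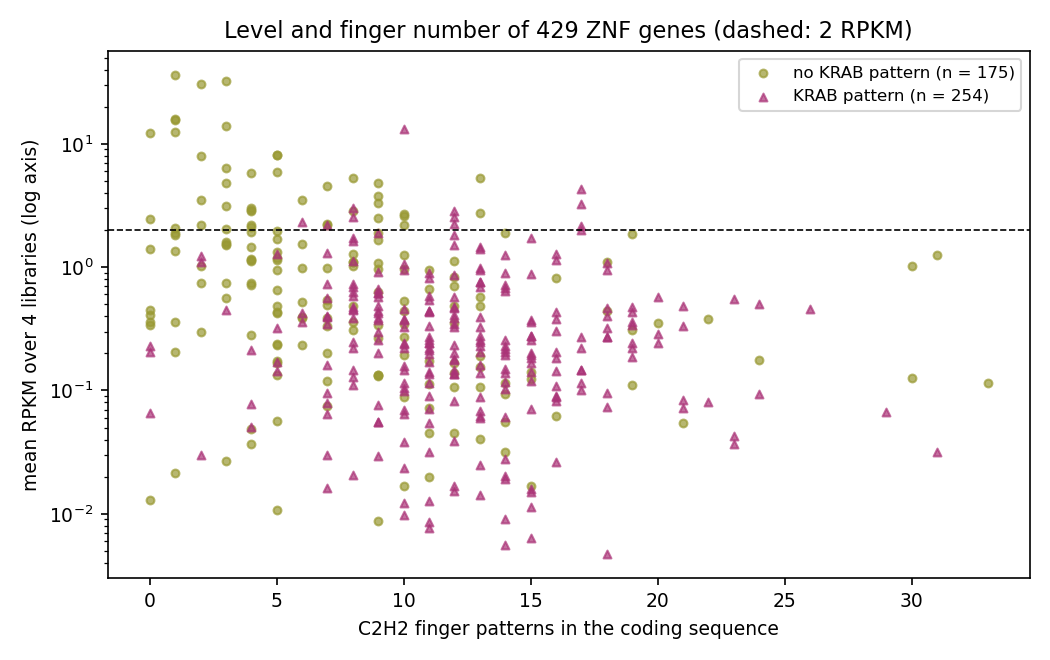
Each point is 1 of 429 ZNF genes, with the number of finger patterns on the x axis and the mean RPKM over 4 libraries on a log y axis. Triangles are genes with a KRAB pattern, and 11 of 254 of them lie above the dashed line at 2 RPKM.

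RBM10 mRNA, the target of the shRNA, stood at 35.5 and 40.8 RPKM in wild type against 11.6 and 10.9 in knockdown, the direction of the labels. All 4 libraries are of 1 batch, with relative depths from 84.5% to 100% of the deepest. Of the A549 and epithelial markers, 7 of 12 were tested. KRT8, KRT18, KRT19, EPCAM and ALDH1A1 were called higher and AKR1B10 lower, against 22.3% called over all genes tested. CDH1 was not called, at 3.17 and 2.78 RPKM in wild type against 3.23 and 3.40 in knockdown (adjusted p = 0.497, limma). MUC1 and NAPSA were too low to be tested, and SFTPB, SFTPC and NKX2-1 have no row in the table. The summed level of the A549 and epithelial markers was 5918 to 6087 RPKM in wild type and 6718 to 7082 in knockdown. PTPRC, CD3E, CDH5, VWF and KDR have no row, and the other leukocyte and endothelial markers (3 of 5 and 1 of 4) were each below 1 RPKM, at sums of 0.359 to 1.04 and 0.00482 to 0.0130 RPKM. Of the fibroblast markers, 4 of 5 have a row, and their sum was 0.562 and 0.838 RPKM in wild type and 2.12 and 2.01 in knockdown. Most of it was THY1, which rose from 0.535 and 0.786 RPKM to 1.91 and 1.74 RPKM (log2 change 0.77, adjusted p = 0.00163 in limma). THY1 entered the test through its knockdown level alone, and the filter on low values favours higher calls among such genes. LUM, PDGFRA and PDGFRB were too low to be tested, at 0.177 RPKM or less in every library. Each was higher in both knockdown libraries than in both wild-type libraries. PDGFRA held the same value in both wild-type libraries, 0.00443 RPKM, as a gene without reads would. Over the whole table, 943 and 970 genes stood at such a shared value in wild type, and 727 and 655 in knockdown. Fewer genes thus lay at the floor in knockdown in general. The part of these marker genes in the results was not tested. In bulk RNA, fewer cells of a type and less RNA per cell cannot be told apart.

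In knockdown, 3 of the 54 genes were higher and 4 were lower in limma's test on log2(RPKM + 1), with a Benjamini-Hochberg adjusted p under 0.05 over 10182 genes tested. ZNF385A and ZNF185 rose more than 3-fold, ZNF780A rose less than 2-fold, ZNF326 fell to 49.0% of its wild-type mean, and ZNF511, ZNF8-ERVK3-1 and ZNF768 fell by smaller amounts. The members' share called was 13.0%. Over all genes tested the share was 22.3%, with 15.3% higher and 7.03% lower. All 54 members passed the filter of 1 RPKM in at least 1 group. With quantile normalization 3 members were higher and 7 lower, and over all genes 1140 and 1031, against 1555 and 716 as deposited. Without wild-type replicate 1 the counts were 4 and 7, without wild-type replicate 2 or knockdown replicate 1 they were 5 and 3, and with no filter on low values 3 and 1. No label says that replicates came from separate cultures, so p-values may reflect technical spread alone.

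Among the genes that rose, ZNF385A (chromosome 12, 54369133 to 54391298, hg38, minus strand) encodes a protein with fingers of the double-stranded RNA binding type that binds p53. It was at 2.76 and 2.69 RPKM in wild type against 10.6 and 9.16 RPKM in knockdown. Both knockdown libraries lay far above both wild-type libraries, which were nearly equal. The mean ratio was 3.63, and the log2 change was 1.55 (SE 0.117, with an adjusted p of 2.35e-05 in limma). Its locus overlaps annotated RNAs on the opposite strand, and the use of strand in counting is not given in the sources used here.

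ZNF185 (chromosome X, 152914442 to 152973480, plus strand) was at 1.11 and 0.937 RPKM in wild type against 3.77 and 3.94 RPKM in knockdown. The groups did not overlap, and the replicates of each lay close together. The mean ratio was 3.76 and the log2 change 1.26 (SE 0.113, with an adjusted p of 6.58e-05 in limma). The gene reached the limit of 2 RPKM through its knockdown level alone, as ZNF326 did through its wild-type level.

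ZNF780A (chromosome 19, 40069152 to 40090938, minus strand), a KRAB zinc finger gene with 17 finger patterns, was at 3.26 and 3.10 RPKM in wild type against 5.26 and 5.70 RPKM in knockdown. The groups were well apart, and this was the only member on chromosome 19 called higher, while 8 of the 17 there had a log2 change above 0. The log2 change was 0.63 (SE 0.112, with an adjusted p of 0.00346 in limma). Its neighbour ZNF780B was at 0.344 and 0.295 RPKM in wild type against 0.541 and 0.738 RPKM in knockdown, too low to enter the test. Of the windows of ZNF780A, 6.94% also occur in other genes, here AC005614.2 and ZNF780B. Reads from these shared windows could move the values of ZNF780A and ZNF780B, and their part was not tested.

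ZNF326 (chromosome 1, 89995112 to 90035531, plus strand) encodes a subunit of the DBIRD complex, which links elongating RNA polymerase II with splicing. It was at 2.86 and 2.68 RPKM in wild type against 1.27 and 1.44 RPKM in knockdown. No other member fell to a smaller share of its wild-type mean, and the groups were far apart. The log2 change was -0.68 (SE 0.113, with an adjusted p of 0.00246 in limma), on 1464 and 1384 reads against 556 and 711.

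ZNF8-ERVK3-1 (chromosome 19, 58278966 to 58315197, plus strand) is a readthrough gene that joins ZNF8 to the neighbouring ERVK3-1. It was at 7.80 and 9.30 RPKM in wild type against 5.70 and 5.79 RPKM in knockdown, with a log2 change of -0.50 (SE 0.118, with an adjusted p of 0.0148 in limma). The knockdown libraries were nearly equal, and wild-type replicate 2 was the highest. Of its 100-base windows, 62.3% also occur in other genes, here ERVK3-1, AC020915.5 and ZNF8, and the share of each was not separated. ERVK3-1 was itself at 7.35 and 8.02 RPKM in wild type against 5.57 and 6.13 RPKM in knockdown (adjusted p = 0.0552, limma). ZNF8 alone had a mean of 0.0645 RPKM. The value of the readthrough gene cannot be told apart from that of ERVK3-1. Without wild-type replicate 2 its adjusted p was 0.0672.

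ZNF511 (chromosome 10, 133308475 to 133313162, plus strand) was at 34.0 and 41.3 RPKM in wild type against 28.0 and 25.9 RPKM in knockdown. The groups did not overlap, but wild-type replicate 2 stood well above replicate 1. The log2 change was -0.47 (SE 0.116, with an adjusted p of 0.0182 in limma), and without wild-type replicate 2 the adjusted p was 0.0791. The gene shares 28.7% of its windows with the readthrough gene ZNF511-PRAP1 and overlaps TUBGCP2 on the opposite strand.

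ZNF768 (chromosome 16, 30524001 to 30526821, minus strand), a gene with 10 finger patterns, was at 3.29 and 3.10 RPKM in wild type against 2.13 and 2.21 RPKM in knockdown. Both knockdown libraries were lower than both wild-type libraries. The log2 change was -0.40 (SE 0.111, with an adjusted p of 0.0277 in limma), and it was the least stable of the 7 calls: 7 of 13 alternatives kept it, and without knockdown replicate 1 the adjusted p was 0.140. ZNF385A, ZNF185, ZNF780A and ZNF326 stayed called in all 13 alternatives.

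**Figure D2:**
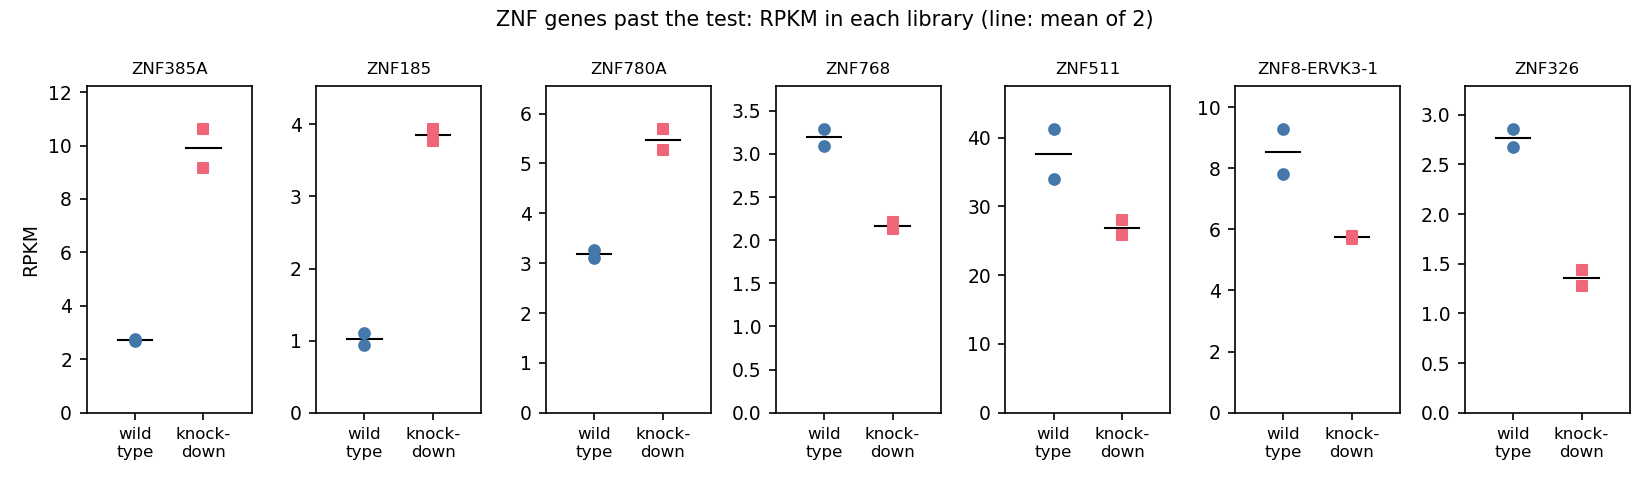
RPKM in each library for the 7 ZNF genes past the test, with wild type as circles, knockdown as squares, the mean of 2 as a line, and a separate y axis from 0 for each gene. In every panel the groups do not overlap; the wild-type replicates of ZNF511, at 34.0 and 41.3 RPKM, lie further apart than those of ZNF385A.

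The 6 members with the highest means include no gene called higher and 1 called lower, ZNF511. ZNF593 was at 35.5 and 44.2 RPKM in wild type against 34.6 and 30.9 in knockdown (adjusted p = 0.1503, limma), and ZNF622, a factor of 60S ribosome subunit maturation, at 14.48 and 16.43 against 12.43 and 12.03 RPKM (adjusted p = 0.0666). ZNF598, a ubiquitin ligase that marks collided ribosomes, was at 15.9 and 19.1 RPKM in wild type against 14.4 and 14.0 in knockdown (adjusted p = 0.114, limma). None of these 3 genes passed the test, although the knockdown libraries of each were below its wild-type libraries, as in 27.3% of all genes tested. Without wild-type replicate 2 the log2 change of ZNF593 went from -0.27 to -0.11 and that of ZNF598 from -0.28 to -0.15. ZNF207, which encodes a spindle protein that binds BUB3, was at 35.5 and 31.7 RPKM in wild type against 27.5 and 26.5 in knockdown, with a log2 change of -0.30 (SE 0.102; limma, adjusted p = 0.0615). ZNF428 went the other way without passing, at 12.6 and 15.6 RPKM in wild type against 17.7 and 16.6 in knockdown (adjusted p = 0.132, limma).

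Groups that did not overlap were found for 38 of the 54 members, 17 higher and 21 lower in knockdown. Over all genes tested, 61.5% did not overlap, 34.3% higher and 27.3% lower. At an unadjusted p under 0.05, 21 members passed, against 35.6% of all genes tested. Differences between replicates reached 1.85-fold in wild type, in ZNF302 at 2.36 and 1.28 RPKM, and 1.44-fold in knockdown. The absolute log2 change was under 0.2 in 26 of the 54 genes, with a median of 0.226, against 0.182 in the other protein-coding genes of like level.

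The ZNF genes on chromosome 19 had 1 call higher and 1 lower of 17 (11.8%), and those on other chromosomes 2 higher and 3 lower of 37 (13.5%). Among 6411 protein-coding genes without a ZNF symbol and of like level (2 to 36.3 RPKM), 903 were higher and 469 lower (21.4%), or 20.7% when weighted to the levels of the members. On chromosome 19 itself, 402 such genes held 89 higher and 29 lower calls (29.3%). In the level bin of 2 to 4 RPKM, 3 of 32 members were called, against 20.3% of the other genes, and in the bin of 4 to 8 RPKM 3 of 11, against 19.9%. In the bin of 8 to 16 RPKM 0 of 8 members were called at the adjusted p, against 22.1% of other genes, and 3 of 8 passed at an unadjusted p under 0.05, against 34.9%. Of the 3 members at 16 RPKM or more 1 was called, against 24.2%. These shares are a description of a chosen list and were not tested.

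The median log2 change was -0.01 on chromosome 19 and -0.08 on the other chromosomes, against 0.01 in the other genes of like level (0.04 when weighted to the members' levels). On chromosome 19, 14 of 17 members were higher in wild-type replicate 2 than in replicate 1. With each gene set to its own mean, the chromosome 19 median was -0.06 and 0.07 in the wild-type libraries and 0.01 and -0.01 in the knockdown libraries, so the knockdown values lie between those of wild type. For the other chromosomes it was -0.002 and 0.03 against -0.04 and -0.03, without overlap. Without wild-type replicate 2 the medians were 0.08 on chromosome 19, 0.01 on the other chromosomes, and without wild-type replicate 1 they were -0.09 and -0.10. Without knockdown replicate 1 or 2 they were 0.01 and 0.01 on chromosome 19, and -0.07 and -0.05 on the other chromosomes. The sign of the chromosome 19 median thus turned without wild-type replicate 2 or either knockdown library, and that of the other chromosomes without wild-type replicate 2.

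Along chromosome 19, 16 of 17 members lie on the long arm, and ZNF414 is alone on the short arm. Near the end of the long arm ZNF544, ZNF8-ERVK3-1, ZNF584 and ZNF446 (58228594 to 58481230) form a run with log2 changes from -0.50 to 0.07. ZNF580, ZNF581, ZNF787 and ZNF444 (55635016 to 56160893) form another, from -0.36 to 0.30. In the latter run ZNF580 was above 0 and the other genes below 0, and no gene of that run was called.

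**Figure D3:**
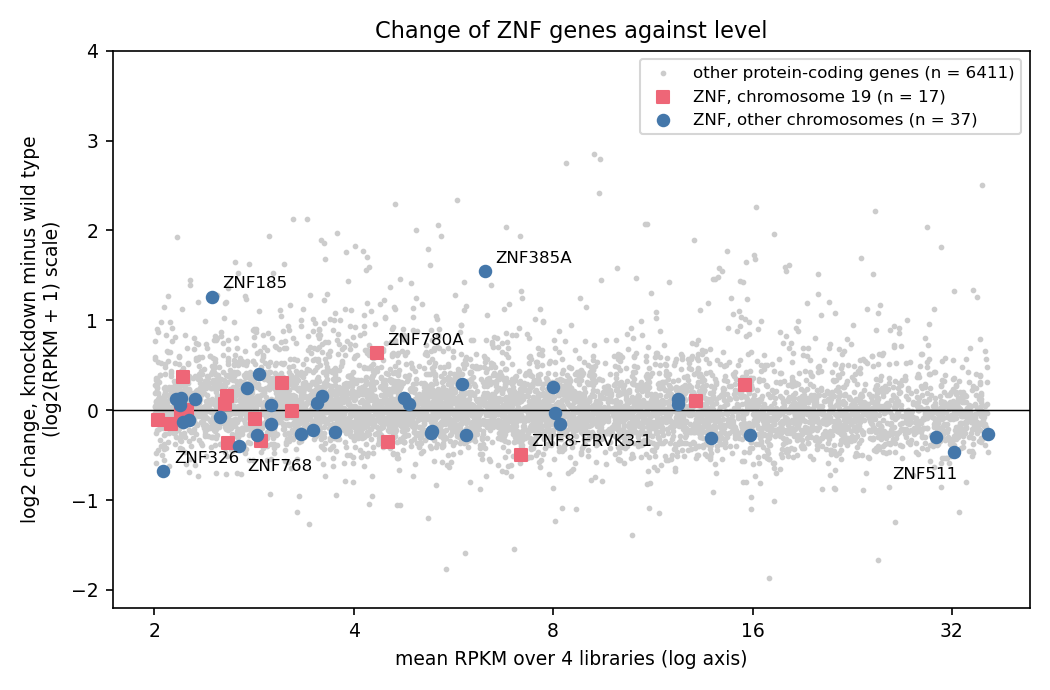
Log2 change (knockdown minus wild type, on log2(RPKM + 1)) against mean RPKM on a log axis, for 17 ZNF genes on chromosome 19 (squares), 37 on other chromosomes (circles) and 6411 other protein-coding genes of like level (grey). The absolute change is under 0.2 in 26 of the 54 ZNF genes, and the named points are the 7 past the test, with ZNF385A highest at 1.55.

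Split by the KRAB pattern, 11 members with it had a median log2 change of 0.125, 9 of them above 0, and 1 call, ZNF780A. The 41 members without it had a median of -0.11, with 26 below 0, 2 calls higher and 3 lower. Any member whose KRAB domain departs from the motifs counts among these 41, and the effect of this on the split was not tested. The median levels of these 2 parts were 2.57 and 3.52 RPKM. Other protein-coding genes at 2 to 4 RPKM had a median log2 change of 0.06, with 40.3% of them below 0. Under quantile normalization the KRAB median was -0.0029, with 5 of 11 above 0, and that of the others -0.24, so the sign of the KRAB median depends on scaling, while the median of the others was below 0 under every scaling tried. Over the alternatives, the KRAB median ran from -0.0029 to 0.20 and the other from -0.24 to -0.06. The split was made after results of these data were known and was not tested.

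**Figure D4:**
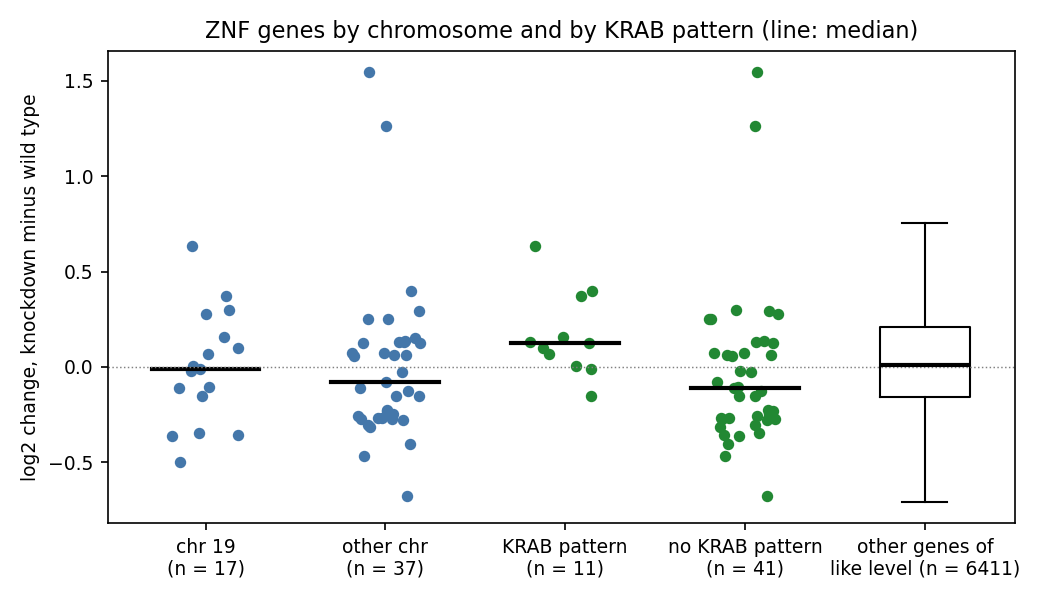
Log2 change of the ZNF genes by chromosome and by KRAB pattern, 1 point per gene with the median as a line, beside a box of 6411 other genes of like level (box: quartiles, whiskers: furthest values within 1.5 box lengths, outliers not drawn). The 11 genes with a KRAB pattern have a median of 0.125 and the 41 without it -0.11.

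Partners of KRAB repression showed 1 call in 18 listed genes, of which 16 were tested, against 22.3% called over all genes tested. HDAC1, a histone deacetylase, fell from 43.2 and 38.7 RPKM to 30.2 and 31.7 RPKM (log2 change -0.39, limma BH adjusted p = 0.0222). TRIM28, the corepressor that KRAB domains bind, was at 283 and 312 RPKM in wild type against 277 and 242 in knockdown (adjusted p = 0.192, limma). SETDB1 was at 3.91 and 3.79 RPKM against 3.31 and 3.80 RPKM. The list's median log2 change was -0.02, from -0.39 to 0.33. Of the HUSH complex, which silences transposons and new genes, all 4 listed genes were tested. None passed limma at the adjusted p, against the same 22.3% of all genes tested, while MORC2 had an unadjusted p of 0.0245. ZNF410, which activates the chromatin remodeller gene CHD4, was at 8.95 and 8.38 RPKM in wild type against 7.48 and 7.92 in knockdown (adjusted p = 0.349, limma), and CHD4 was at 32.4 and 30.5 against 30.7 and 34.8 RPKM.

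Splicing was read as PSI, the share of reads that use an examined junction in a set of competing junctions, given by the authors as a fraction and printed here as a percent. Events were listed for 18 of the 54 members, 31 in all, of which 15 lie in 9 genes of chromosome 19. Cassette exons made up 15 of the 31, alternative 5′ sites 6, and alternative 3′ sites and retained introns 3 each. Members with a listed event made up 52.9% on chromosome 19, 24.3% on other chromosomes and 33.3% in all, against 19.9% of the other genes of like level. Events were listed only where PSI varied by 0.15 or more over the libraries, so these shares also count differences between replicates.

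No event of a member passed the adjusted test with a difference of 10 percentage points or more (limma, 0 of 31, against 0.107% of 3744 events), and 1 passed at an unadjusted p under 0.05 (background 18.4%). The smallest adjusted p was 0.259. Groups that did not overlap were found in 18 of 31 events, against 54.2% of all events. The values that follow are thus measurements whose differences did not pass the test, and the reads behind each PSI are not known.

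In ZNF655, a KRAB zinc finger gene of chromosome 7, the junction that leaves the 105-base exon had a PSI of 48.5% and 48.7% in wild type and 76.5% and 78.6% in knockdown. The replicates of each group lay close together, and the group means lay 28.9 points apart (SE 8.32, with an adjusted p of 0.259 in limma). The gene's total level was 2.15 and 2.15 RPKM in wild type and 2.28 and 2.63 in knockdown (adjusted p = 0.458, limma).

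In ZNF207 the junction that skips the 93-base exon had a PSI of 74.6% and 74.9% in wild type and 53.7% and 56.0% in knockdown. The junction into the exon went the other way, from 12.6% and 12.6% to 30.1% and 26.2%. Both junctions thus placed more of the exon in the knockdown libraries, with adjusted p = 0.269 and 0.301 in limma. Inclusion of the 183-base ZNF384 exon was also higher, since the PSI of its skipping junction was 74.7% and 87.6% in wild type and 72.5% and 69.4% in knockdown, with a wide gap between the wild-type libraries. The ZNF384 exon falls outside the naming rule and was chosen after its values were seen, for its finger-coding sequence.

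ZNF584, a KRAB gene of chromosome 19, had the opposite sign. The junction that leaves the 127-base exon was at 84.3% and 73.4% in wild type and at 47.5% and 66.2% in knockdown, and the skipping junction at 10.2% and 15.3% against 33.6% and 20.8%. The knockdown libraries lay far apart, and the group means differed by -22.0 points (SE 10.28, with an adjusted p of 0.281 in limma). ZNF638, which encodes a nucleic acid binding protein that works with the HUSH complex, had a PSI of 93.8% and 85.7% in wild type and 70.6% and 67.8% in knockdown for the nearer of 2 junctions from one donor site.

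Among alternative 5′ and 3′ sites, ZNF692 used the acceptor that keeps the 61-base part at 55.2% and 54.0% in wild type and 63.2% and 81.0% in knockdown, and ZNF143, an activator that binds promoters, used the acceptor without CAG at 35.0% and 34.0% against 47.7% and 50.0%. In both genes the knockdown libraries were higher. On chromosome 19, the alternative 5′ site of ZNF446 went from 39.4% and 30.8% to 61.1% and 48.6%, and that of ZNF302 from 35.7% and 44.9% to 52.0% and 64.9%.

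ZNF687, a partner of the chromatin reader ZMYND8, skipped an exon at 67.4% and 73.2% in wild type and at 83.9% and 90.0% in knockdown. ZNF444 joined an exon at 64.7% and 74.7% against 76.6% and 92.3%, and ZNF384 used an alternative promoter junction at 33.3% and 39.6% against 54.8% and 50.0%. ZNF251 had the retained intron end at 43.9% and 29.2% in wild type and 22.7% and 26.9% in knockdown, with the widest spread in wild type. By gene, inclusion was higher in 5 and lower in 3 of the 8 members with a cassette event whose groups did not overlap, taking the event with the largest difference in each gene. Over all genes counted in the same way, inclusion was higher in 401 of 669 (59.9%).

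**Figure D5:**
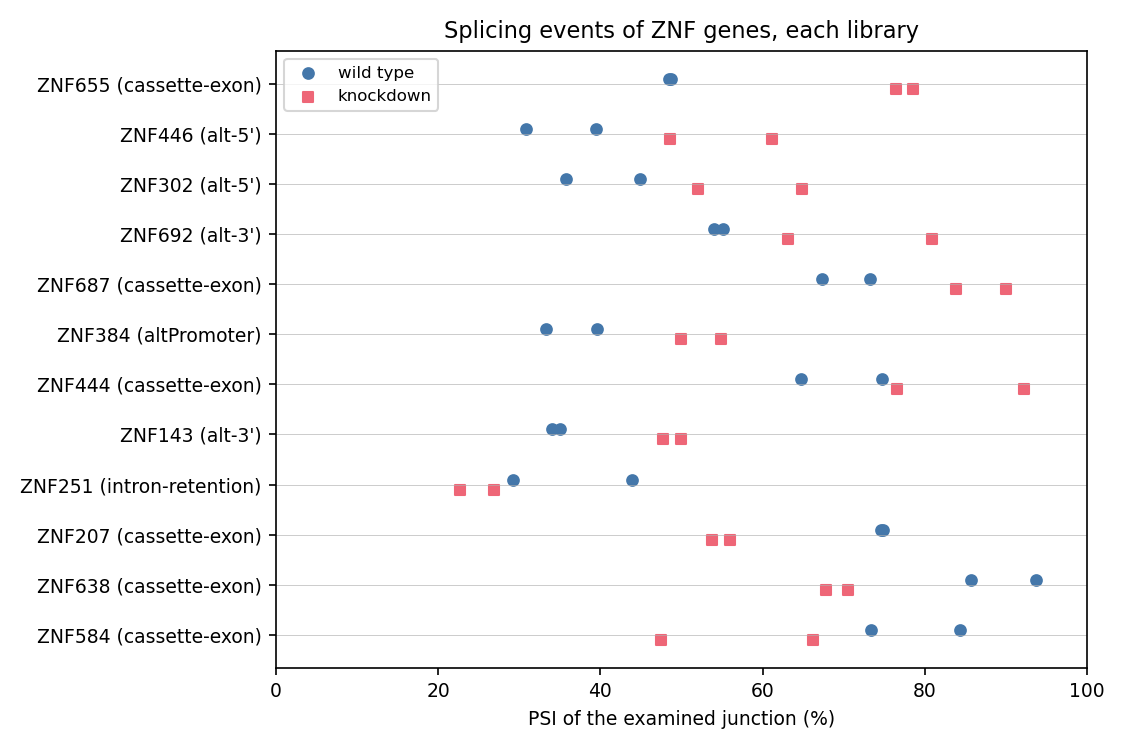
PSI of the examined junction in each library, in percent, for the 12 ZNF splicing events with the largest differences among those whose groups do not overlap, with 1 event per gene, wild type as circles and knockdown as squares. ZNF655 shows the widest gap, from 48.7% in the higher wild-type library to 76.5% in the lower knockdown library.

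Promoters were searched for the motif ACTACA, then any 2 bases, then TCCC, which ZNF143 binds, on both strands of the 250 bases before each start in RefSeq (GRCh38.p14), and no other motif was searched. It was found in 8 of 47 members with a promoter in the table (17.0%), in 5 of 16 on chromosome 19 (31.25%) and in 3 of 31 elsewhere (9.68%). The other genes of like level held it in 234 of 5232 (4.47%), and all genes with a promoter in 2.05%. ZNF genes below 2 RPKM held it in 14.51%, so it is not particular to the members. The 5 windows on chromosome 19 are printed here, on the strand that reads the motif, in capitals, since they are where the promoters hold this motif most often.
ZNF146, chr19:36214964-36214993: aggccttggACTACATTTCCCttgaggctt
ZNF331, chr19:53520879-53520908: gggttatggACTACATTTCCCagaggcctc
ZNF444, chr19:56141046-56141075: aacactggaACTACATTTCCCaagatacgc
ZNF584, chr19:58408588-58408617: gggacgtgaACTACATTTCCCataaggagc
ZNF8-ERVK3-1, chr19:58278939-58278965: gcggcgACTACAACTCCCagtaggccg

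Of the members whose promoter holds the motif, ZNF8-ERVK3-1 was lower and the others were not called. The shares called were 13.0% over all members and 22.3% over all genes tested. The window lies at the start of the readthrough gene, while ERVK3-1, from which its value cannot be told apart, starts at 58305319. ZNF143 itself was at 2.48 and 2.27 RPKM in wild type against 2.12 and 2.14 in knockdown (log2 change -0.11, SE 0.111; adjusted p = 0.528, limma). A match of letters does not show binding, and the binding of ZNF143 was not measured.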

How the data were processed

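The submitters' processing notes name STAR 2.6.1 and hg38. The counter, annotation and strand setting were not given in the sources used here. Expression was deposited in the form of RPKM, a unit inferred from the values. RPKM were whole reads times a step per gene in 99.9% of 7685 genes checked (tolerance 0.0001). Genes with 1 exon block were listed in 8.06% of cases and the rest in 75.1%, which is what RPKM counted on junction reads would give. The authors deposited PSI as a fraction, and its depth is unknown.

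Members, lists and tests were chosen with earlier results of these data known. Values were fitted as log2(RPKM + 1), which understates fold changes of low genes, where a group's mean reached 1 RPKM. The tool was limma 3.58.1 (R 4.3.3; empirical Bayes, trended); PSI, complete in 3744 of 3768 events, was fitted without trend. Benjamini-Hochberg adjusted p-values cover all features. The fits were first tested on simulated data.

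Named genes were RBM10, up to 12 rises and 12 falls past the test, the 6 highest means, the 12 largest PSI differences without overlap (1 per gene), the rule's edges and up to 4 called genes per list. Other genes bearing on a result were named after their values were seen. Symbols came from a gene ID table for 16921 of 17041 IDs and GENCODE v29 for 85. Of 54 members, 52 had a coding sequence and 47 a RefSeq promoter. Same-numbered libraries deviated in opposite directions in expression (correlation -0.444) and showed little relation in PSI (-0.0396), so numbers were not used as pairs. The main fit has no term for this opposite deviation. Alternatives covered pseudocount, filter, scaling, trend, block, level limit and each library left out.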

Additional observations from a re-analysis of the deposited data

How the results depend on the processing

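No call reversed in any alternative. The 4 lower calls were 1 with no filter on low values, 7 with quantile normalization and 2 with a level limit of 4 RPKM, and ran from 3 to 7 with each library left out; the 3 higher calls ran from 3 to 5 and were 6 with a limit of 1 RPKM. The median log2 change on chromosome 19 was -0.14 with quantile normalization, -0.10 with cyclic loess and 0.10 with a limit of 4 RPKM, and ran from -0.0861 to 0.0757 with a library left out. On other chromosomes it was -0.11 with a pseudocount of 0.1 and with median of ratios scaling, -0.19 with quantile normalization, -0.16 with cyclic loess, 0.0572 with a limit of 1 RPKM and -0.15 with 4 RPKM, and ran from -0.104 to 0.00566. The other genes of like level, weighted to the members' levels, were at 0.0359 in the main fit. They were at -0.057 with quantile normalization and -0.0107 with cyclic loess, and ran from 0.00548 to 0.0743 with a library left out. Quantile normalization gave 1140 higher and 1031 lower calls over all genes, against 1555 and 716 as deposited. The splicing event count at an unadjusted p was 2 with the logit of PSI and with the trend, and ran from 1 to 2 with a library left out. With the replicate number as a block, 3 genes were higher and 3 lower, and ZNF768 was not called. The 2 libraries of each group limit every test, and a library left out leaves 1 that is assumed to vary like the other group.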

Other observations

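Of 60 ZNF genes that were tested with a mean below 2 RPKM, 3 were higher in knockdown and 0 lower in limma at the adjusted p (10 at an unadjusted p under 0.05). These 3 genes entered the test through their knockdown level alone, since their wild-type means were below 1 RPKM, so the filter on low values favours higher calls among such genes. They were named after their values were seen. ZNF853 was at 0.466 and 0.343 RPKM in wild type against 2.06 and 1.90 RPKM in knockdown (log2 change 1.08, limma BH adjusted p = 0.000142). ZNF138, with a KRAB pattern, was at 0.853 and 0.855 RPKM against 1.66 and 1.601 RPKM, and ZNF821 at 0.733 and 0.809 against 1.204 and 1.33 RPKM. The groups of each gene did not overlap. Among 1724 other protein-coding genes below 2 RPKM, 362 were higher and 44 lower.

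Other zinc finger gene families, taken by the start of the symbol, held 5 calls in 27 tested genes (18.5%), against 22.3% of all genes tested. All 5 were higher, against 15.3%. The families were chosen as C2H2 families, but the prefix ZFP also takes in ZFP36L1, whose fingers are of another type, so the counts are not of C2H2 genes alone. In ZBTB genes 1 of 10 was called higher, ZBTB38, a binder of methylated DNA, from 1.497 and 1.23 RPKM to 2.17 and 2.91 RPKM. In ZSCAN genes 1 of 4 was called higher, ZSCAN2. In KLF genes it was 1 of 7, KLF5, an epithelial transcription factor, from 2.72 and 2.31 RPKM to 4.87 and 5.22 RPKM. In ZFP genes 2 of 6 were called higher, ZFP90 and ZFP36L1. ZFP90 went from 0.438 and 0.406 RPKM to 1.33 and 1.49 RPKM and entered the test through its knockdown level alone. ZFP36L1 carries CCCH fingers and destabilises mRNA. No ZKSCAN gene reached the level of the test (0 tested).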
